A study of Mus musculus with 4 samples.

Results

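Chaperones of the cytosol, the mitochondria and the endoplasmic reticulum (ER) were followed through the cell types of hypoxic mouse lungs. The set holds 40 genes given by name, and each was found as 1 row among the 31253 genes of the files by its symbol. By class they are 7 genes of the Hsp70 family, 2 of Hsp90, 4 of Hsp40, 2 of Hsp60, 3 small heat shock proteins, 5 co-chaperones and regulators, 6 subunits of the TRiC ring and 11 ER chaperones. They were also split into 17 heat-inducible, 12 constitutive and 11 ER genes. The question was whether lower levels of inducible chaperones in mutants, seen in earlier results of these same data, are shared by constitutive and ER chaperones. The inducible levels below repeat that earlier look and are no separate support for it. The mutant genotype was Vegfr2Y949F, in which a tyrosine of VEGFR2 is replaced by phenylalanine; VEGFR2, the product of Kdr, is the chief endothelial receptor for VEGF-A. It was set against WT mice. Both groups were on the C57BL/6J background, were 6 to 8 weeks old by their labels and had spent 6 weeks in hypoxia, and no normoxic library was analysed here. There were 2 droplet libraries per genotype, lettered A and B, with lung cells of 2 mice combined in every library. The Vegfr2Y949F libraries are called mutant A and mutant B. The labels name no Cre or promoter and do not say what the letter marks.

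Chaperones bind unfolded proteins and help them to fold, to assemble or to be cleared. When unfolded proteins build up in the cytosol, the transcription factor Hsf1 is released from chaperones and binds heat shock elements before the inducible chaperone genes. When they build up in the ER, the unfolded protein response raises ER chaperones, through ER stress response elements among others, so the inducible classes are known to have separate controls. In lung endothelium Hsp90 is known as a partner of nitric oxide synthase and Hspb1 as a regulator of actin filaments. Chaperone genes are also known to respond to the warm enzymatic digestion used to free cells from tissue, a step that all 4 libraries shared.

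The promoters were searched for exact matches to such elements. The split into heat-inducible, constitutive and ER genes was set by a list and not by this search. A member without an exact match is not shown to lack an element. RefSeq windows (GRCm38.p6, 250 bases before to 50 bases after the transcription start) were found for 32 of the 40 members. The windows were searched on both strands for a heat shock element of 3 units, GAANNTTCNNGAA, for one of 2 units, GAANNTTC, which the longer motif contains, and for the ER stress response element, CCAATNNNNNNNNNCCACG. The 3-unit motif was found in 4 members, Hsph1, Hspd1, Hspe1 and Chordc1, which are all heat-inducible, against 0.662% of 27025 genes with a window. The 2-unit motif was found in 10 of 15 heat-inducible members, 1 of 7 constitutive members (Cct2) and 0 of 10 ER members, against 9.04% of all genes. The ER motif was found in 5 of 10 ER members, Hspa5, Hsp90b1, Pdia6, Calr and Canx, and in no other member, against 0.137% of all genes. No window was held for Hspa8, Hspa9, Hsp90aa1, Hsp90ab1, Cryab, Hsf1, Cct4 and Hyou1. In the sequences below capitals mark the motif, on either strand, and each runs 5′ to 3′ on the strand of its gene.

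The inducible Hsp70 pair Hspa1a (chr17:34972157-34972406, minus strand) and Hspa1b (chr17:34959239-34959488, minus strand) had the 2-unit motif at the same place, and 247 of the 250 bases before their starts were identical. Hspb1 (chr5:135887669-135887918, plus strand) had 2 such motifs.
Hspa1a: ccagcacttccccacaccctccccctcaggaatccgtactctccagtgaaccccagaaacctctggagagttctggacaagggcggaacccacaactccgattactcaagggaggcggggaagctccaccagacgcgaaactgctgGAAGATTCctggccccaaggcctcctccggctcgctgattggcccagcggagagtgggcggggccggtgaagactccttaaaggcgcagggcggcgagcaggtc
Hspa1b: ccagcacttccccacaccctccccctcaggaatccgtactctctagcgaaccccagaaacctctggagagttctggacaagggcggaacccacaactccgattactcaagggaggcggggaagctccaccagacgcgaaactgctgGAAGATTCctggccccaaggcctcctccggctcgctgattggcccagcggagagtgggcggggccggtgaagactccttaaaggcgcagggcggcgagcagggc
Hspb1: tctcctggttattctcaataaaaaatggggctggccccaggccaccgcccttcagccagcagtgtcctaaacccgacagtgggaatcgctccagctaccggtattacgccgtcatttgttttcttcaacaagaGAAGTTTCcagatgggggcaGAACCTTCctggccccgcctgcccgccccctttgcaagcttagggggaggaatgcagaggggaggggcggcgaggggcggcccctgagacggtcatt

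The 3-unit motif overlapped annotated exons or the start itself in Hspe1 (chr1:55088053-55088082, plus strand), Hsph1 (chr5:149636279-149636308, minus strand) and Chordc1 (chr9:18292260-18292289, plus strand), so 30 bases around each site are shown. The Hspe1 site lies before the start of Hspe1 and within the annotated span of Hspd1, its neighbour on the opposite strand.
Hspe1: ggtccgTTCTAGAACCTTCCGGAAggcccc
Hsph1: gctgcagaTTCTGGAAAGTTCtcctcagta
Chordc1: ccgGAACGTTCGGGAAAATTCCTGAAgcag

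The ER motif is shown for Hspa5 (chr2:34772020-34772049, plus strand, within the annotated first exon, hence 30 bases), for Hsp90b1 (chr10:86705510-86705694, minus strand, 2 motifs) and for Calr (chr8:84846935-84847181, minus strand).
Hspa5: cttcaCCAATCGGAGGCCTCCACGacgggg
Hsp90b1: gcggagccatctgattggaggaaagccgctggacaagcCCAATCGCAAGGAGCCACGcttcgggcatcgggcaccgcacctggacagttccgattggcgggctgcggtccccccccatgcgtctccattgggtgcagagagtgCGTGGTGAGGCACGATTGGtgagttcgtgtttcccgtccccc
Calr: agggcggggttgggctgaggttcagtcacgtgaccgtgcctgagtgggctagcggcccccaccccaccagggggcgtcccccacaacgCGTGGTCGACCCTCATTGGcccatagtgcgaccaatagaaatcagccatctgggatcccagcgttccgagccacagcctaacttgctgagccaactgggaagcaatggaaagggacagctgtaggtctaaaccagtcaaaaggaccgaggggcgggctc

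The 4 libraries held 83606389 to 96521589 unique molecular identifiers (UMIs, 1 per captured RNA molecule), and 9304 to 11446 cells per library were kept. The median was 4312 and 5548.5 UMIs per kept cell in mutant A and B, against 4339.5 and 5472 in WT A and B, so B libraries were deeper in both genotypes. Clusters were built without the chaperone genes and named from markers, which gave 20 cell types, and 4996 of 41250 cells stayed unnamed. Levels are in CPM, the usual unit for counts scaled to one fixed total: a gene's UMIs were summed over the cells of a type in a library and divided by all UMIs of that sum, scaled with the TMM factors of that type. All endothelial cells are the general capillary cells, aerocytes, arterial and venous cells together, 6022 and 4677 cells in mutant A and B and 7147 and 4827 cells in WT A and B. Kdr had 460 and 455 CPM there in mutant A and B, against 472 and 391 CPM in WT A and B, and this level is no check of a point mutation. Libraries shared 43 to 70 barcodes pairwise.

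In all endothelial cells 39 of the 40 chaperone genes had a lower mean level in mutants, against 51.2% of the 13933 genes tested. None was called with edgeR's quasi-likelihood test at an adjusted p under 0.05, where 0% of all genes were called, and DESeq2 called 0 members and 0.0292% of all genes. At an unadjusted p under 0.05 edgeR had 3 members, Hsph1, Hspe1 and Hspb1, all lower in mutants, against 1.13% of all genes. In 20 members both mutant libraries lay below both WT libraries, against 11% of all genes, and in 0 members both lay above them. The groups differed in size: the median log2 fold change of mutant over WT was -0.45 over the heat-inducible, -0.24 over the constitutive and -0.20 over the ER genes, beside -0.01 over all genes. Genes of 1 class share their libraries and are not replicates, so these medians carry no test. The plot of members by library shows how far the 4 libraries stood apart for each gene.

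**Figure D1:**
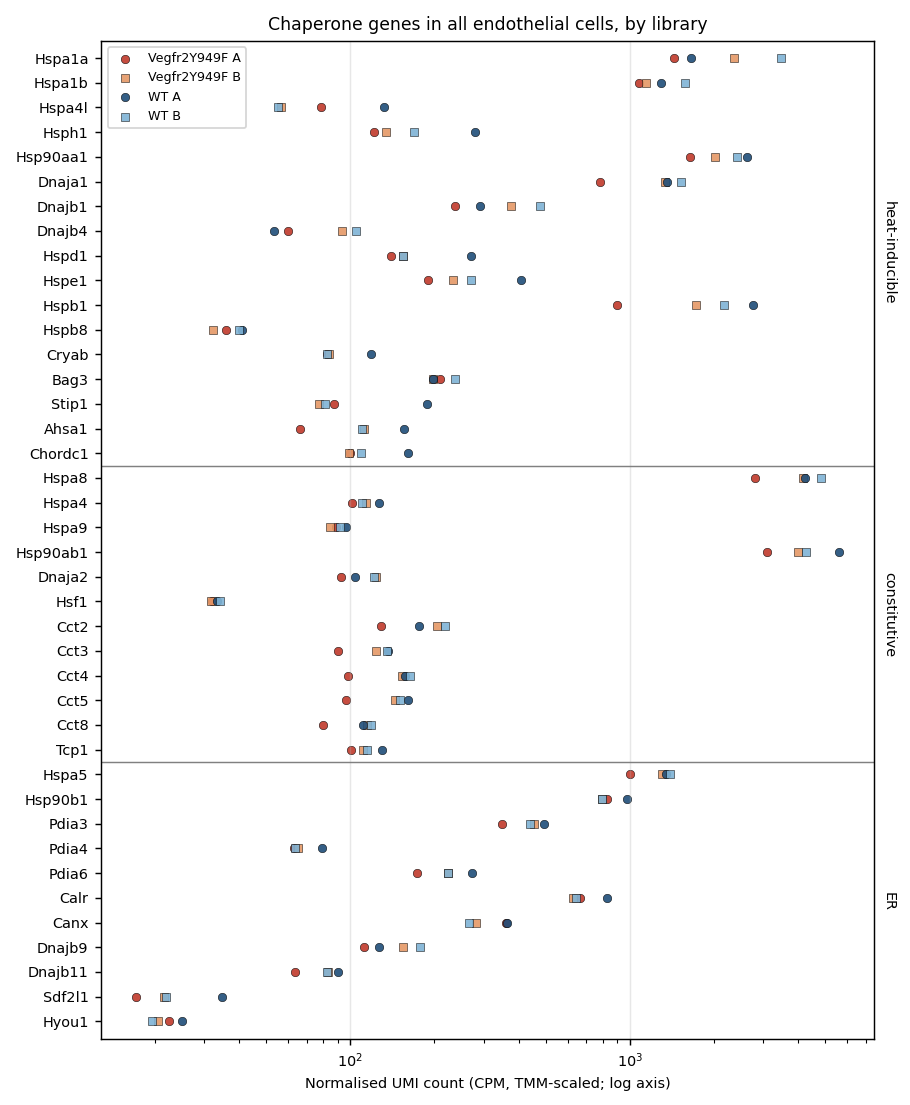
Level of each of the 40 chaperone genes in all endothelial cells (CPM, log axis), 1 point per library, mutant libraries in red and orange and WT libraries in blue, with genes grouped as heat-inducible, constitutive and ER. Both mutant points lie left of both WT points in 20 genes, and WT A stands to the right of the other 3 libraries for Hsph1, Hspe1, Hspd1, Stip1 and Ahsa1.

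The Hsp70 family pulls unfolded stretches through cycles of ATP binding, and Hsp110 proteins such as Hsph1, Hspa4 and Hspa4l release the ADP. Hsph1 (ENSMUSG00000029657, mm10 chr5:149614287-149636376, minus strand) had 122 and 134 CPM in mutant A and B, against 279 and 169 CPM in WT A and B. Both mutant libraries were below both WT libraries, and the difference was -0.81 on the log2 scale (SE 0.25; edgeR unadjusted p = 0.0161, adjusted p = 0.999). Hspa4l had 78.4 and 56.2 CPM in mutant A and B, against 132 and 55.1 CPM in WT A and B, so WT A stood alone. Hspa4 ranged from 102 to 114 CPM in mutants and from 110 to 127 CPM in WT, and the groups overlapped.

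The stress-inducible cytosolic Hsp70 genes were both at their highest level in WT B. Hspa1a (ENSMUSG00000091971, mm10 chr17:34969190-34972156, minus strand) had 1446 and 2363 CPM in mutant A and B, against 1655 and 3474 CPM in WT A and B. Its B libraries were higher in both genotypes, the groups overlapped, and the log2 fold change was -0.43 (SE 0.41, edgeR adjusted p = 0.999). Hspa1b, its neighbour on chromosome 17, had 1081 and 1140 CPM in mutant A and B, against 1295 and 1582 CPM in WT A and B, without overlap. The transcripts of this pair were 93.6% identical over aligned bases, so reads of the stretches alike could be split between them. Over their last 300 bases they were less alike, at 65.1%. Their sum was 2527 and 3503 CPM in mutant A and B, against 2950 and 5056 CPM in WT A and B, and it overlapped. Hspa8, the constitutive Hsp70 of the cytosol, had 2818 and 4173 CPM in mutant A and B, against 4248 and 4828 CPM in WT A and B. Mutant A was lowest and the groups did not overlap (log2 fold change -0.38, SE 0.28, edgeR adjusted p = 0.999). Hspa9, the mitochondrial Hsp70, had 88.5 and 84.3 CPM in mutant A and B, against 96.6 and 91.7 CPM in WT A and B, a log2 fold change of -0.12.

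Hsp90 completes the folding of kinases and steroid receptors, and it has an inducible and a constitutive cytosolic form. The inducible Hsp90aa1 had 1640 and 2013 CPM in mutant A and B, against 2635 and 2415 CPM in WT A and B. The constitutive Hsp90ab1 had 3113 and 3994 CPM in mutant A and B, against 5628 and 4264 CPM in WT A and B. Both forms had a mean that was lower in mutants by nearly the same log2 fold change, -0.47 (SE 0.22) and -0.48 (SE 0.27), and neither overlapped between genotypes (edgeR adjusted p = 0.999 each). The co-chaperones that serve Hsp90 stood apart mainly in WT A. Stip1, which hands substrates from Hsp70 to Hsp90, had 87.4 and 77.3 CPM in mutant A and B, against 188 and 81.0 CPM in WT A and B. Ahsa1, which stimulates the Hsp90 ATPase, had 66.2 and 112 CPM in mutant A and B, against 156 and 110 CPM in WT A and B. Chordc1 had 99.98 and 99.1 CPM in mutant A and B, against 161 and 109 CPM in WT A and B, and was the only gene of the 3 without overlap. Bag3, which releases substrates from Hsp70 and guides them to autophagy, ranged from 198 to 210 CPM in mutants and from 198 to 237 CPM in WT. Hsf1, the heat shock transcription factor, had 31.9 and 31.6 CPM in mutant A and B, against 33.4 and 34.0 CPM in WT A and B, a log2 fold change of -0.09 (SE 0.13).

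Hsp40 proteins bring substrates to Hsp70. Dnaja1 had 784 and 1333 CPM in mutant A and B, against 1356 and 1528 CPM in WT A and B, without overlap and with mutant A lowest. Dnajb1 had 237 and 376 CPM in mutant A and B, against 292 and 479 CPM in WT A and B, and Dnajb4 had 59.8 and 93.4 CPM, against 53.1 and 105 CPM. These 2 genes split by the letter like Hspa1a, with both B libraries above both A libraries. Dnaja2 ranged from 92.6 to 124 CPM in mutants and from 104 to 121 CPM in WT.

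The mitochondrial chaperonin Hspd1 and its lid Hspe1 are head-to-head neighbours (mm10 chr1:55077835-55088243, minus strand, and chr1:55088132-55091307, plus strand) whose annotated 5′ ends overlap, and reads of the shared stretch could be given to either. Hspe1 had 189 and 232 CPM in mutant A and B, against 407 and 270 CPM in WT A and B (log2 fold change -0.68, SE 0.24, edgeR unadjusted p = 0.0267, adjusted p = 0.999). Hspd1 had 139 and 154 CPM in mutant A and B, against 270 and 155 CPM in WT A and B. Neither gene overlapped, but WT B exceeded mutant B by little in Hspd1, in which the B libraries differed by -0.01 and the A libraries by -0.95 on the log2 scale.

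Small heat shock proteins hold unfolded proteins without ATP. Hspb1 (ENSMUSG00000004951, mm10 chr5:135887919-135889563, plus strand) had the largest difference of the 40 genes in this sum, with 898 and 1734 CPM in mutant A and B, against 2776 and 2175 CPM in WT A and B. The groups did not overlap, and the log2 fold change was -0.91 (SE 0.35, edgeR unadjusted p = 0.0359, adjusted p = 0.999). Hspb8, which acts with Bag3, had 35.9 and 32.2 CPM in mutant A and B, against 40.8 and 39.8 CPM in WT A and B, also without overlap. Cryab, a crystallin, had 82.5 and 83.8 CPM in mutant A and B, against 119 and 82.7 CPM in WT A and B, so WT A alone stood apart.

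The TRiC ring folds actin and tubulin and is made constitutively. Its 6 genes measured here were lower in mutants in mean, with log2 fold changes from -0.37 to -0.21 and a median of -0.30. Their summed level was 593 and 850 CPM in mutant A and B, against 870 and 900.3 CPM in WT A and B. Mutant A was the lowest, and mutant B was below both WT libraries by little. In 4 of the 6, Cct3, Cct4, Cct5 and Tcp1, both mutant libraries were below both WT libraries, against 11% of all genes. The smallest edgeR adjusted p of the class was 0.999.

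ER chaperones had a smaller median difference, which came mainly from the A libraries. Their summed level was 3656 and 4029 CPM in mutant A and B, against 4651 and 4123 CPM in WT A and B. Hspa5, also called BiP, the ER Hsp70 that holds the sensors of the unfolded protein response inactive, had 1005 and 1301 CPM in mutant A and B, against 1351 and 1390 CPM in WT A and B. It did not overlap, and its log2 fold change was -0.25 (SE 0.21, edgeR adjusted p = 0.999). Pdia6, a disulfide isomerase, had 173 and 223 CPM in mutant A and B, against 272 and 223 CPM in WT A and B, and its B libraries differed by -0.001 on the log2 scale. Sdf2l1, an ER Hsp40 cofactor, had 17.1 and 21.4 CPM in mutant A and B, against 34.7 and 21.8 CPM in WT A and B, the largest log2 fold change of the class at -0.55 (SE 0.25, edgeR unadjusted p = 0.0628). These 3 of the 11 ER genes had both mutant libraries below both WT libraries, against 11% of all genes, and the others overlapped. Hsp90b1 ranged from 795 to 827 CPM in mutants and from 798 to 982 CPM in WT, and the lectin chaperone Calr from 628 to 664 CPM in mutants and from 642 to 832 CPM in WT. The isomerases Pdia3 and Pdia4, the Hsp40 proteins Dnajb9 and Dnajb11 and the exchange factor Hyou1 also overlapped, with log2 fold changes of -0.21, -0.15, -0.20, -0.24 and -0.05. Canx, the membrane-bound partner of Calr, had 360.0 and 283 CPM in mutant A and B, against 364 and 266 CPM in WT A and B, and was the only gene with a higher mean in mutants, at 0.03 (SE 0.22).

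The A libraries and the B libraries gave different sizes. Between the A libraries 38 of 40 genes were lower in the mutant, against 49.8% of all genes, with medians of -0.68 over heat-inducible, -0.46 over constitutive and -0.33 over ER genes. Between the B libraries 30 of 40 were lower in the mutant, against 51.7% of all genes, with medians of -0.22, -0.10 and 0.00 (-0.001) in the same order. The summed level of the 17 heat-inducible genes was 7256 and 10230 CPM in mutant A and B, against 12010 and 13070 CPM in WT A and B, without overlap. That of the 12 constitutive genes was 6838 and 9370 CPM in mutant A and B, against 11110 and 10350 CPM in WT A and B, also without overlap. Hspa8 and Hsp90ab1, with levels given above, made up most of this constitutive sum in every library. In 8 of the 12 constitutive genes taken singly both mutant libraries lay below both WT libraries, against 11% of all genes. The sum of the 11 ER genes, given above, did not overlap either, and mutant B stood close to WT B there. Single libraries set the size: without mutant A the 3 medians were -0.32, -0.10 and -0.13, without mutant B -0.63, -0.56 and -0.42, without WT A -0.35, -0.27 and -0.12, and without WT B -0.53, -0.26 and -0.30. In each of these fits all 3 medians were below 0. The plot of A against B differences shows genes that were lower in the A pair mainly, such as Ahsa1 and Stip1, and others lower in the B pair mainly, such as Hspa1a and Hspa1b.

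**Figure D2:**
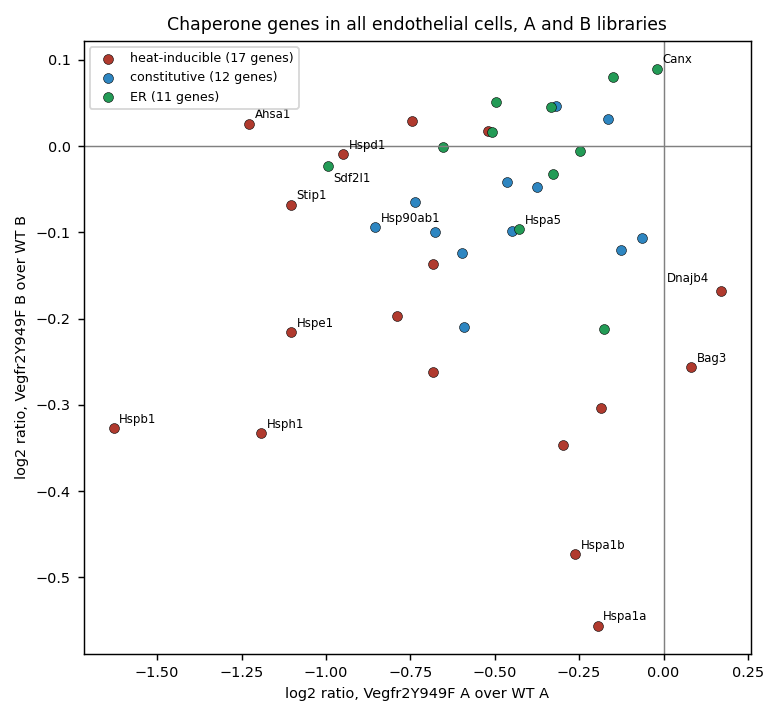
Log2 ratio of mutant A over WT A (x axis) against mutant B over WT B (y axis) in all endothelial cells, 1 point per chaperone gene, coloured by group. Most points lie below and left of 0, Hspb1 and Hsph1 are low on both axes, and the ER genes lie near 0 on the y axis with a median of -0.001.

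Other measures moved with the letter and the library. The 19 immediate early genes found in the files, which respond within minutes to stimuli and to digestion, summed to 22710 and 33300 CPM in mutant A and B, against 25850 and 36510 CPM in WT A and B in all endothelial cells. The B libraries were higher in both genotypes, as for Hspa1a, Dnajb1 and Dnajb4, and each mutant library was below the WT library of its letter. Of these genes 0 were called by edgeR, against 0% of all genes. A lower mean in mutants was seen in 17 of 19, against 51.2% of all genes, with a median log2 fold change of -0.13. The 4 with the smallest p were Ier2 (-0.29), Ier5 (-0.27), Ccn1 (-0.24) and Ier3 (-0.28), and all 4 overlapped between genotypes. The median share of mitochondrial UMIs per endothelial cell was 3.82% and 3.31% in mutant A and B, against 3.68% and 2.70% in WT A and B. The part of these in the chaperone levels was not tested.

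Other genes of the same pathways came from lists written for this comparison. The first held 33 further chaperone genes, listed as cytosolic and mitochondrial but with the ER proteins Serpinh1 and Hspa13 among them. In all endothelial cells 24 of the 33 had a lower and 9 a higher mean in mutants, against 51.2% of all genes with a lower mean. Their median log2 fold change was -0.13, and edgeR called 0 of them and 0% of all genes. In 11 of the 33 both mutant libraries were below both WT libraries, against 11% of all genes. Without Serpinh1 and Hspa13 these counts were 23 lower and 8 higher of 31, with 10 below both WT libraries and the same median of -0.13. The 4 with the smallest p were the exchange factor Bag2 (-0.51), the TRiC subunit Cct7 (-0.50), the Hsp90 partner Fkbp4 (-0.59) and the collagen chaperone Serpinh1 (-0.35). Cct7 had 143 and 177 CPM in mutant A and B, against 262 and 191 CPM in WT A and B. Fkbp4 had 79.0 and 88.6 CPM in mutant A and B, against 164 and 88.8 CPM in WT A and B, the same high WT A as in Stip1. Of 22 further ER chaperone and unfolded protein response genes 14 had a lower and 8 a higher mean in mutants, against 51.2% of all genes with a lower mean. Among these 22 genes 0 were called, and the median was -0.07. In 4 of these both mutant libraries were below both WT libraries and in 3 above, against 11% and 11.2% of all genes. Manf, a secreted ER stress protein, had 192 and 252 CPM in mutant A and B, against 337 and 259 CPM in WT A and B. Ern1, the IRE1 sensor, had 14.3 CPM in both mutant libraries, against 12.3 CPM in both WT libraries. Creld2 stood at -0.32 on the log2 scale, and Derl3 was below 1 CPM in every library.

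General capillary cells and aerocytes, the 2 cell types of the capillary bed, had similar medians. In general capillary cells 39 of 40 genes had a lower mean in mutants, against 51.8% of all genes, and edgeR called 0 members and 0% of all genes. At an unadjusted p under 0.05 were 3 members, Hsph1, Hspe1 and Hspb1, against 1.58% of all genes, and DESeq2 called 0 members and 0.0754% of all genes. The medians were -0.45 over heat-inducible, -0.25 over constitutive and -0.19 over ER genes. Hspb1 had 616 and 1156 CPM in mutant A and B, against 1987 and 1533 CPM in WT A and B (log2 fold change -0.99, SE 0.34, edgeR adjusted p = 1). In aerocytes, the large capillary cells of gas exchange, 39 of 40 had a lower mean in mutants, against 49.9% of all genes. There edgeR called 0 members and 0% of all genes, 6 members were at an unadjusted p under 0.05 against 1.36% of all genes, and DESeq2 called 0 members and 0.0168% of all genes. These 6 were Hsph1, Hsp90aa1, Hspd1, Hspe1, Hspb1 and Ahsa1, all heat-inducible. Hsph1 had 120 and 140 CPM in mutant A and B, against 288 and 203 CPM in WT A and B (log2 fold change -0.92, SE 0.20, edgeR unadjusted p = 0.00177, adjusted p = 1). Aerocyte medians were -0.49 over heat-inducible, -0.21 over constitutive and -0.12 over ER genes. Without mutant B, which leaves mutant A alone, 8 members had aerocyte log2 fold changes from -1.62 (Hspb1) to -0.68 (Cct5). The others of the 8 were Hspa1a, Hsph1, Dnaja1, Dnajb1, Hspe1 and Ahsa1. They were picked by a fit that assumes the lone library to vary like the others. Without WT B, which leaves WT A alone, Stip1 was picked in the same way and stood at -1.19. Aerocyte values without mutant A or without WT A are not given, and no call is drawn from such fits.

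Arterial and venous cells were smaller groups of cells. Venous cells had medians of -0.46, -0.23 and -0.22 over heat-inducible, constitutive and ER genes, with Hsph1, Hspe1, Stip1 and Cct3 at an unadjusted edgeR p under 0.05, against 1.54% of all genes. Arterial cells had medians of -0.23, -0.34 and -0.20, and Hspb1, Cct5 and Cryab were at an unadjusted p under 0.05, against 2.12% of all genes. Cryab in arterial cells went the other way, with 27.5 and 36.9 CPM in mutant A and B, against 16.2 and 14.7 CPM in WT A and B (log2 fold change 1.05, SE 0.34, edgeR unadjusted p = 0.00743, adjusted p = 1). The arterial sums held 1309898 and 1028331 UMIs in mutant A and B, against 1008724 and 1346791 UMIs in WT A and B. These Cryab levels therefore rest on few UMIs. Lymphatic cells, with 23 cells in WT A and 27 in mutant A, had medians of -0.46, -0.13 and -0.28 and 0 members at an unadjusted p under 0.05, against 0.685% of all genes. No member was called in these 3 types, where 0% of all genes were called.

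General capillary cells fell into 5 clusters, which were built without any chaperone gene and tested apart after the data were seen. Clusters 0, 1 and 2 had Sema3c, Cd74 and Cxcl12 among their leading genes, cluster 4 had Adamts1, Ier3 and Atf3, and cluster 10 was led by Plvap. In clusters 0, 1 and 2 the summed heat-inducible level and the summed constitutive level were lower in both mutant libraries than in both WT libraries, and the ER level overlapped. Cluster 0 had 7011 and 8701 CPM in mutant A and B, against 11690 and 11740 CPM in WT A and B. Cluster 1 had 5468 and 6396 CPM in mutant A and B, against 9680 and 9083 CPM in WT A and B. Cluster 2 had 6200 and 7256 CPM in mutant A and B, against 11170 and 9855 CPM in WT A and B. The constitutive sums were 7153 and 9828 CPM in mutant A and B, against 11700 and 10580 CPM in WT A and B, in cluster 0. They were 5936 and 7455 CPM in mutant A and B, against 10160 and 8114 CPM in WT A and B, in cluster 1. In cluster 2 they were 6417 and 8628 CPM in mutant A and B, against 11110 and 9194 CPM in WT A and B. These clusters gave heat-inducible medians of -0.50, -0.52 and -0.60, with constitutive medians of -0.24, -0.29 and -0.23 and ER medians of -0.17, -0.17 and -0.11. Cluster 4, whose leading genes hold immediate early genes, had 9225 and 10280 CPM in mutant A and B, against 12210 and 13770 CPM in WT A and B, with a median of -0.34. Its constitutive sum was 7765 and 10500 CPM in mutant A and B, against 11790 and 11290 CPM in WT A and B, also without overlap. At an unadjusted edgeR p under 0.05 lay 5, 7, 9 and 3 members in clusters 0, 1, 2 and 4, against 1.21%, 1.91%, 1.35% and 0.885% of all genes, and none was called, with DESeq2 calling 0 as well.

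Cluster 10 was mostly of mutant cells, 613 and 762 in mutant A and B, against 53 and 50 in WT A and B. Its heat-inducible sum overlapped, with 10080 and 11760 CPM in mutant A and B, against 9626 and 12110 CPM in WT A and B, and a median of -0.17. Its constitutive sum did not overlap, with 8045 and 9253 CPM in mutant A and B, against 10260 and 10670 CPM in WT A and B, and a median of -0.23. Its ER sum did not overlap either, with 3820 and 3647 CPM in mutant A and B, against 4213 and 4078 CPM in WT A and B, and a median of -0.14. Hspa1a had 2683 and 3322 CPM in mutant A and B there, against 1426 and 3458 CPM in WT A and B, so WT A was the low library. Hspa1b had 1761 and 1691 CPM in mutant A and B there, against 1071 and 1081 CPM in WT A and B, a higher level in both mutant libraries (log2 fold change 0.68, SE 0.25, edgeR unadjusted p = 0.0199, adjusted p = 0.718). Hspb1 stayed at a lower level in both mutant libraries, with 646 and 1289 CPM in mutant A and B, against 1972 and 1510 CPM in WT A and B (log2 fold change -0.85, SE 0.34, edgeR unadjusted p = 0.0308, adjusted p = 0.718). No member was called in this cluster, where edgeR called 0.0413% of all genes, and 4 members were at an unadjusted p under 0.05, against 6.55% of all genes. The counts behind it are small, with 11 UMIs of Hspb8 in the library with the fewest. With it left out, all endothelial cells had medians of -0.49, -0.23 and -0.17 over heat-inducible, constitutive and ER genes. With cluster 4 left out they were -0.43, -0.23 and -0.19.

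**Figure D3:**
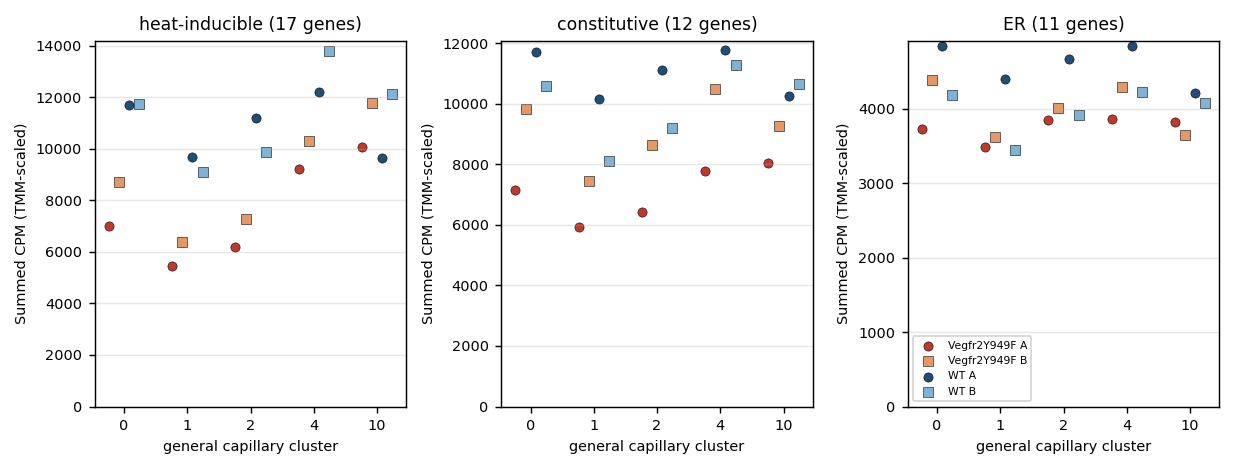
Summed level (CPM) of the heat-inducible, constitutive and ER genes in each general capillary cluster, 1 point per library with mutant libraries left of WT libraries. In clusters 0, 1, 2 and 4 both mutant points of the heat-inducible panel lie below both WT points, and in cluster 10 they overlap. In the constitutive panel both mutant points lie below both WT points in all 5 clusters. Hspa8 and Hsp90ab1 made up most of the constitutive sum in all endothelial cells. In the ER panel both mutant points lie below both WT points in cluster 10, and they overlap in clusters 0, 1, 2 and 4.

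Outside the endothelium the heat-inducible medians were also below 0 in all 10 types tested. Pericytes, which wrap capillaries, had the lowest at -0.55, with -0.23 over constitutive and -0.26 over ER genes. In pericytes Hspb1 had 282 and 513 CPM in mutant A and B, against 1031 and 975 CPM in WT A and B (log2 fold change -1.34, SE 0.31, edgeR unadjusted p = 0.000754, adjusted p = 1). The other members under an unadjusted p of 0.05 there were Hsph1, Hspd1, Hspe1 and Ahsa1, 5 of 40 in all, against 2.23% of all genes, and edgeR called 0 members and 0% of all genes. Endothelial markers in pericytes were at 4.99% and 1.15% of their endothelial level in mutant A and B, against 4.21% and 4.07% in WT A and B, and their part in the Hspb1 level was not tested.

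Alveolar fibroblasts, which support the gas exchange surface, had medians of -0.33 over heat-inducible, -0.12 over constitutive and -0.31 over ER genes. All 11 ER genes had a lower mean in mutants there, and in 7 both mutant libraries were below both WT libraries, against 12.3% of all genes. Hspa5 had 2006 and 2154 CPM in mutant A and B, against 2668 and 2480 CPM in WT A and B (log2 fold change -0.31, SE 0.19). Sdf2l1 had 44.0 and 46.3 CPM in mutant A and B, against 93.9 and 49.1 CPM in WT A and B (log2 fold change -0.66, SE 0.26). Hsph1 had 177 and 153 CPM in mutant A and B, against 245 and 241 CPM in WT A and B (log2 fold change -0.56, SE 0.18). No member was called by edgeR at an adjusted p under 0.05, where 0.0162% of all genes were. At an unadjusted p under 0.05 were Hsph1, Dnajb11 and Sdf2l1, against 1.43% of all genes, and DESeq2 called 0 members and 0.0211% of all genes. The difference between all endothelial cells and alveolar fibroblasts was tested itself, over 14653 genes. No member passed (edgeR adjusted p = 1 for each), and 0% of all genes did. At an unadjusted p under 0.05 was Hspb1 alone of the members, with a further difference of -0.49 in the endothelium (SE 0.14, edgeR unadjusted p = 0.00626), against 3.38% of all genes.

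Adventitial fibroblasts and myofibroblasts had heat-inducible medians of -0.22 and -0.18, constitutive medians of -0.06 and -0.08 and ER medians of -0.24 each. Hspb1 in adventitial fibroblasts had 580 and 577 CPM in mutant A and B, against 1339 and 675 CPM in WT A and B. Alveolar type 1 cells, the thin epithelium of the alveolus, had medians of -0.20, -0.04 and -0.04 over heat-inducible, constitutive and ER genes. In these cells Dnaja1 had 328 and 339 CPM in mutant A and B, against 539 and 448 CPM in WT A and B (log2 fold change -0.57, SE 0.18, edgeR unadjusted p = 0.00821, adjusted p = 0.999). Club cells, with 22 to 51 cells per library, had a heat-inducible median of -0.28 that was -0.47 between the A and 0.19 between the B libraries. No member was called in these 4 types, where edgeR called 0% of all genes, or 0.0295% in club cells. At an unadjusted p under 0.05 were 4 members in alveolar type 1 cells, 1 in club cells, 2 in adventitial fibroblasts and 2 in myofibroblasts, against 1.88%, 3.7%, 3.03% and 3.32% of all genes in the same order.

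Among leukocytes, alveolar macrophages had medians of -0.35, -0.09 and -0.25 over heat-inducible, constitutive and ER genes, and in 8 of 11 ER genes both mutant libraries were below both WT libraries, against 14.2% of all genes. There Hspa1a had 206 and 118 CPM in mutant A and B, against 437 and 295 CPM in WT A and B (log2 fold change -1.16, SE 0.33, edgeR unadjusted p = 0.00906, adjusted p = 1). Dnajb9 had 220 and 193 CPM in mutant A and B, against 305 and 335 CPM in WT A and B. Hspb1 had 77.0 and 36.7 CPM in mutant A and B, against 544 and 71.9 CPM in WT A and B, so WT A stood alone. Endothelial markers in alveolar macrophages were at 8.32% and 1.81% of their endothelial level in mutant A and B, against 19.3% and 2.15% in WT A and B. In T cells Hspb1 had 86.4 and 67.9 CPM in mutant A and B, against 471 and 87.6 CPM in WT A and B, with endothelial markers at 8.48% and 3.16% in mutant A and B, against 15.1% and 4.22% in WT A and B. In interstitial macrophages Hspb1 had 89.5 and 148 CPM in mutant A and B, against 596 and 185 CPM in WT A and B, with these markers at 6.30% and 6.46% in mutant A and B, against 12.8% and 4.99% in WT A and B. In all 3 types WT A was highest in both Hspb1 and endothelial markers, and the part of endothelial RNA in this was not tested. In alveolar macrophages WT A was also highest in Hspa1a, and the part of endothelial RNA in that was not tested either.

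Interstitial macrophages had medians of -0.44, -0.33 and -0.07, and Hspa1a at 1454 and 1108 CPM in mutant A and B, against 2373 and 2077 CPM in WT A and B (log2 fold change -0.80, SE 0.23, edgeR adjusted p = 1). Neutrophils and T cells had heat-inducible medians of -0.10 and -0.11, constitutive medians of -0.24 and 0.05 and ER medians of 0.01 and 0.00 (-0.001). In neutrophils Hspa1a had 89.3 and 90.3 CPM in mutant A and B, against 139 and 184 CPM in WT A and B. Endothelial markers there were at 6.14% and 2.56% of their endothelial level in mutant A and B. In WT A and B they were at 5.90% and 4.06%. The part of endothelial RNA in the Hspa1a levels of neutrophils and interstitial macrophages was not tested. No member was called in leukocytes, where edgeR called 0% of all genes, and an unadjusted p under 0.05 was reached by 7 members in alveolar macrophages, 5 in interstitial macrophages, 3 in neutrophils and 1 in T cells, against 1.65%, 3.26%, 2.53% and 0.611% of all genes in the same order.

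Over the 15 cell types, which share the 4 libraries, 4 members had a lower mean in mutants in every type: Hspb1, Hsp90ab1, Hspe1 and Hspa8. In single types 45.6% (T cells) to 51.8% (general capillary cells) of all genes had a lower mean in mutants. Both mutant libraries were below both WT libraries in 9.63% (T cells) to 15.8% (club cells). Shares of all genes over the types together were not counted. Hspb1 ranged from -2.37 to -0.14 on the log2 scale, with both mutant libraries below both WT libraries in 11 types. Its lowest value was in alveolar macrophages, where WT A stood alone and was highest in endothelial markers. Hsp90ab1 ranged from -0.51 to -0.13, Hspe1 from -0.79 to -0.20 and Hspa8 from -0.49 to -0.14. Hspa5 had both mutant libraries below both WT libraries in 11 types, the most together with Hspb1, though its log2 fold changes only ran from -0.46 to 0.08. At the other end, Hsf1, Canx and Hspa4 had a lower mean in mutants in 6 of 13, 6 of 15 and 7 of 15 types in which they passed the low-count filter. The map of log2 fold changes shows these rows.

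**Figure D4:**
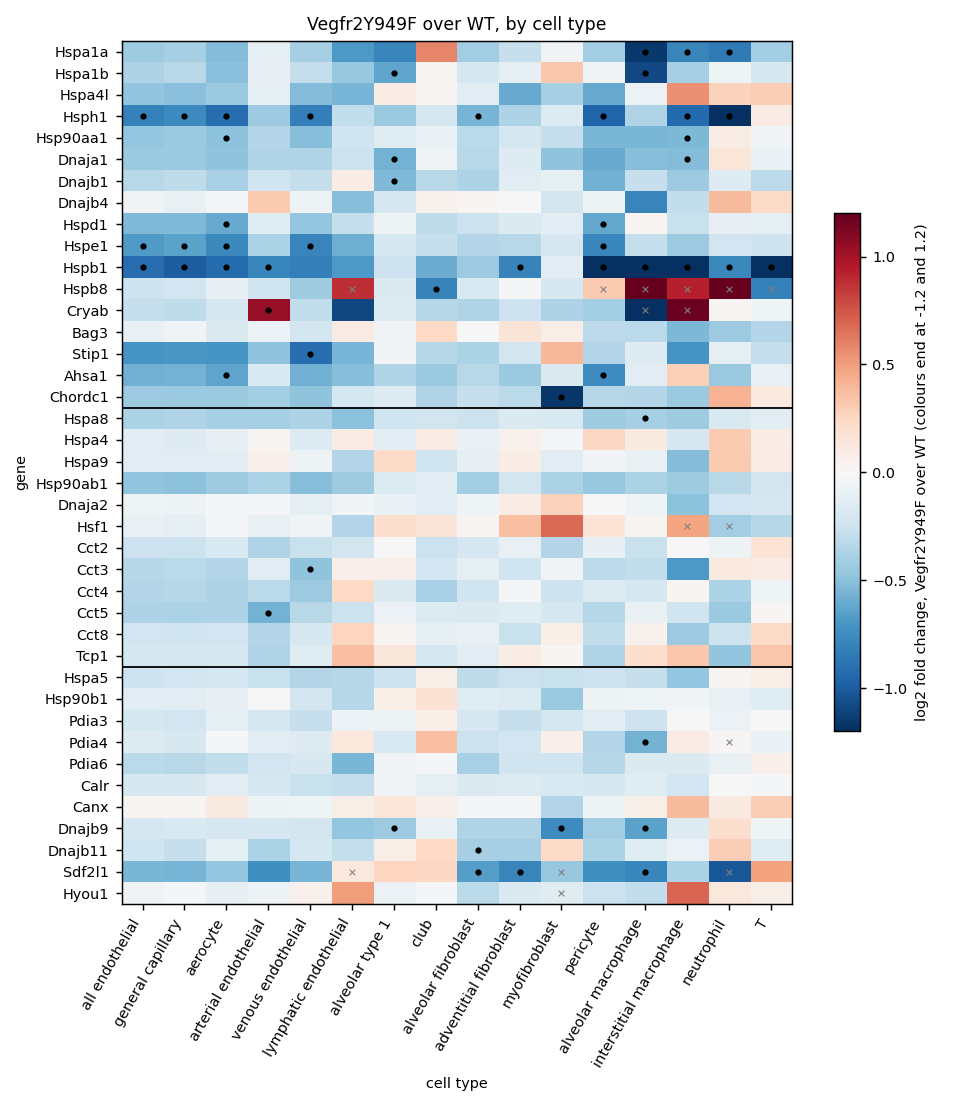
Log2 fold change of mutant over WT for each chaperone gene (rows, grouped as heat-inducible, constitutive and ER) in all endothelial cells and 15 cell types (columns), blue for lower and red for higher in mutants. Black dots mark an unadjusted edgeR p under 0.05 and crosses a gene that failed the low-count filter in that type. The Hspb1 row is blue in every column, and the heat-inducible block is darker blue than the ER block in the endothelial columns.

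The level of the same gene in the highest type was 2.14 to 101 times that in the lowest of the 15 types, as a mean of 4 libraries. Of the 40 members 11 were highest in lymphatic endothelial cells, 7 in alveolar macrophages and 6 in adventitial fibroblasts, and 30 were lowest in neutrophils. CPM is a share of the RNA of each type, so this order is relative to the other RNA of the cells, and a type's own total was not measured. In 3 members every library of the type at the top lay above every library of the next type. These were Hsph1 in lymphatic cells (460 ± 96.4 CPM, SD over 4 libraries, and 204 ± 96.1 CPM in venous cells), Pdia3 in adventitial fibroblasts (693 ± 89.3 CPM, and 509 ± 57.4 CPM in myofibroblasts) and Canx in alveolar macrophages (557 ± 47.8 CPM, and 371 ± 29.0 CPM in adventitial fibroblasts). In the other 37 the ranges of the 4 libraries overlapped between the type at the top and the next.

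Small heat shock genes were the most restricted. Hspb8 averaged 186 ± 19.4 CPM in myofibroblasts, 163 ± 11.2 CPM in adventitial fibroblasts, 112 ± 10.9 CPM in alveolar fibroblasts and 108 ± 12.1 CPM in alveolar type 1 cells, against 1.87 ± 1.98 CPM in alveolar macrophages (SD, n = 4 libraries each). Cryab averaged 1530 ± 254 CPM in alveolar type 1 cells and 1257 ± 280 CPM in pericytes, next 370 ± 70.6 CPM in alveolar fibroblasts and 15.1 ± 2.13 CPM in T cells. Within the capillaries Cryab was at 110 ± 11.4 CPM in aerocytes and 73.6 ± 19.4 CPM in general capillary cells, and at 209 ± 46.4 CPM in venous cells. Hspb1 averaged 3600 ± 1551 CPM in aerocytes, then 2411 ± 555 CPM in alveolar fibroblasts, 1323 ± 581 CPM in general capillary cells and 80.7 ± 36.2 CPM in neutrophils. Its spread in aerocytes came from mutant A at 1542 CPM and mutant B at 3433 CPM, against 5199 CPM in WT A and 4226 CPM in WT B.

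Inducible Hsp70 was at its highest levels in vessel cells and low in alveolar type 1, club and alveolar macrophage cells. Hspa1a averaged 3179 ± 1232 CPM in pericytes, 2459 ± 1285 CPM in aerocytes and 2224 ± 845 CPM in general capillary cells, against 149 ± 90.2 CPM in alveolar type 1 cells and 126 ± 45.4 CPM in neutrophils (SD, n = 4 libraries each). The types at the top did not differ beyond this spread. The Hsp40 genes Dnajb1 and Dnajb4 were highest in alveolar fibroblasts, at 828 ± 275 CPM and 377 ± 65.7 CPM. The ER gene Hspa5 averaged 2968 ± 468 CPM in adventitial fibroblasts, which secrete collagen, 1276 ± 178 CPM in general capillary cells and 543 ± 68.3 CPM in club cells. Of the ER genes 6, Hspa5, Hsp90b1, Pdia3, Pdia4, Pdia6 and Dnajb11, were highest in adventitial fibroblasts, and 3, Canx, Sdf2l1 and Hyou1, in alveolar macrophages.

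**Figure D5:**
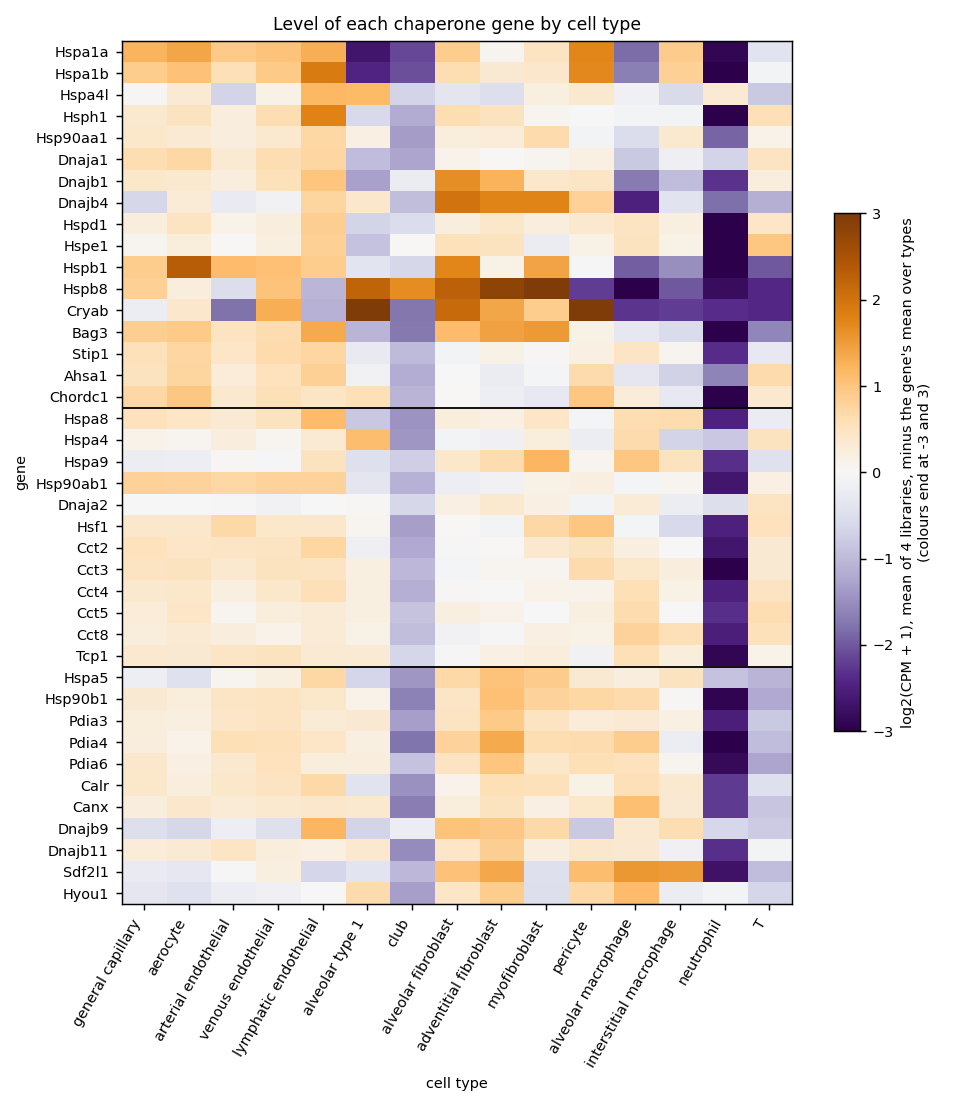
Level of each chaperone gene by cell type as log2(CPM + 1), mean of 4 libraries, minus the mean of that gene over the 15 types, brown for above and purple for below. The neutrophil and club columns are purple for most genes, Hspb8 and Cryab change most across the columns, and the ER rows are brown in adventitial fibroblasts.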

How the data were processed

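Each library's deposited matrix gives raw counts, UMIs of a gene in a barcode, and was written by Cell Ranger 6.1.1 per the file headers. The build mm10 and the tools fastp, UMI-tools and Seurat 4.1.0 are named per the submitters' processing notes. Aligner settings and annotation are not given in the sources used here. Reads of near-identical or overlapping genes could be split or shared by that counting.

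Barcodes with at least 500 genes, 1000 UMIs and under 15% mitochondrial UMIs were kept, and the top 8% of Scrublet scores per library were removed, since its own threshold marked 0 to 387 cells. The 2000 most variable genes, without the chaperone and companion lists, sex-linked, mitochondrial, haemoglobin and ribosomal genes and Kdr, gave 40 principal components, 15 neighbours and Leiden clusters (scanpy 1.11.5, leidenalg 0.10.2, resolution 1), with no integration. A cluster took a name with at least 3 markers in 20% of cells and a score lead of 0.3, or 0.05 relative to the maximum within a lineage. Naming thresholds were set after seeing the data, and names can differ from the study's.

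Counts were summed per library and type (at least 20 cells in each library) and tested with edgeR 4.0.16 (quasi-likelihood, TMM, filterByExpr, Benjamini-Hochberg, adjusted p under 0.05) on 2 against 2 libraries, after a test on simulated data. Medians over members include genes below the filter, fitted without it. P-values cover the spread between 2 pools per genotype. The exact permutation test of 2 against 2 libraries cannot reach 0.05. The members, lists and comparisons were chosen with earlier results of these data known. All 40 members are reported, and from each companion list the 4 genes with the smallest unadjusted p in all endothelial cells. Coordinates come from GENCODE M21, where 31107 of 31253 identifiers were found. DESeq2 1.42.0, other scaling, filters, the replicate block and single libraries left out were the alternatives. Alveolar type 2, ciliated, natural killer, group 2 innate lymphoid and B cells had too few cells and were not tested.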

Additional observations from a re-analysis of the deposited data

Results flagged for a closer look

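In 7 cases both mutant libraries were below both WT libraries in all endothelial cells and above both in another type, and the difference between the types was not tested. These are log2 fold changes of mutant over WT. Hspa9 was at 0.23 in alveolar type 1 cells and 0.0866 in adventitial fibroblasts, against -0.12 in all endothelial cells. Tcp1 was at 0.14 in alveolar type 1 cells and 0.34 in T cells, against -0.21 in all endothelial cells. Hsf1 was at 0.36 in adventitial fibroblasts and 0.48 in interstitial macrophages, against -0.09 in all endothelial cells, and its lowest count in interstitial macrophages was 1 UMI. Chordc1 was at 0.42 in neutrophils, with at least 6 UMIs in each library, against -0.44 in all endothelial cells. Both mutant libraries were above both WT libraries in 13.4% of all genes in alveolar type 1 cells, 15.4% in adventitial fibroblasts, 16.3% in interstitial macrophages, 15.9% in neutrophils and 11.2% in T cells.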

How the results depend on the processing

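No member was called in the fits above that used all 4 libraries, and some were called under other settings. Without the low-count filter 1 member was called in all endothelial cells, Hsph1 (edgeR adjusted p = 0.0245), against 0.18% of all genes. In general capillary cells 1 was called, Hspb1, against 0.276%, and in aerocytes 2, Hsph1 and Hspb1, against 0.151%. The other types together had 7. These were 3 in alveolar macrophages (0.245% of all genes) and 1 each in adventitial fibroblasts (0.215%), pericytes (0.0339%), interstitial macrophages (0.174%) and T cells (0.111%). In the difference between endothelium and alveolar fibroblasts 1 was called, for which the share of all genes is not given. With the replicate block, which uses only the shared letter, 0 were called in all endothelial cells, 0 in general capillary cells and 0 in alveolar fibroblasts, 1 in aerocytes (Hsph1; 0.112% of all genes) and 13 in the other types together. These were 4 in venous cells (Hsph1, Hspe1, Hspb1, Stip1; 0.522% of all genes), 3 in pericytes (Hsph1, Hspe1, Hspb1; 0.118%), 3 in alveolar macrophages (Hspa1a, Hspa1b, Hspb1; 0.481%) and 1 each in interstitial macrophages (Hspb1; 0.262%), neutrophils (Hsph1; 0.431%) and T cells (Hspb1; 0.493%). The part of endothelial RNA in the leukocyte calls, with the block or without the low-count filter, was not tested. In capillary cluster 1 the block called 8 heat-inducible members (0.577% of all genes) and in cluster 4 it called Hsph1 (0.0369%). With it the 3 endothelial medians were -0.41, -0.26 and -0.19. The difference of A and B libraries correlated at 0.601 between the genotypes over 12428 genes, but with 2 pairs the letters are not shown to pair the libraries. Leaving out single libraries gave endothelial medians from -0.63 to -0.32 (heat-inducible), -0.56 to -0.10 (constitutive) and -0.42 to -0.12 (ER). The lone library is then assumed to vary like the others. Stip1 stood at -1.195 without WT B in all endothelial cells, and calls of these fits are not given for any type. DESeq2, RLE factors, a stricter cell filter, kept doublets and clustering with the chaperone genes changed no call in all endothelial cells, and the heat-inducible median stayed between -0.45 and -0.44; the 2 settings without a capillary cluster, chosen after seeing the data, also called 0.

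In all endothelial cells the sign of 16 members turned with a library left out, each ranging from below to above 0 on the log2 scale: Bag3 -0.21 to 0.0413, Calr -0.37 to 0.0103, Canx -0.18 to 0.28, Cct2 -0.62 to 0.052, Cct8 -0.52 to 0.0087, Cryab -0.51 to 0.0095, Dnaja2 -0.28 to 0.14, Dnajb1 -0.70 to 0.0717, Dnajb4 -0.45 to 0.53, Dnajb9 -0.45 to 0.0681, Hsp90b1 -0.28 to 0.0262, Hspa1a -0.86 to 0.20, Hspa4l -0.97 to 0.29, Hyou1 -0.21 to 0.15, Pdia4 -0.31 to 0.0234 and Stip1 -1.195 to 0.0259. The cause was not tested. Fewer cells of a type limit the depth of its sums, as in lymphatic and club cells.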
